A study of Mus musculus with 18 samples.

Results

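Full-length cDNA collections of the mouse hold many clones that carry no clear protein-coding frame, and the array used here reads 9286 of them, each known by a GenBank accession that begins with AK. Their probes were taken by name: every non-control probe whose name marks it as non-coding and carries an AK accession. That gave 17025 of the 80520 non-control probes. All probes of an accession were treated as 1 transcript. Of the transcripts, 1566 had 1 probe, 7702 had 2, 17 had 3 and 1 had 4.

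The series asked how withdrawal of folic acid alters transcription in mouse triple-negative breast cancer lines. Cells of 3 lines were grown for 72 h: E-Wnt and M-Wnt, labelled as from a mammary tumor, and metM-Wnt, labelled as from a liver metastasis. Control medium was RPMI medium with 2.2 µM folic acid and ordinary fetal bovine serum, and withdrawal medium lacked folic acid and held dialyzed serum, so the effects of the serum and of the vitamin cannot be told apart. The 6 groups had 3 arrays each. The series' text calls them biological replicates, and if they were not separate cultures the p-values would measure only the spread between these samples. Each line stands for its subtype as a single cell line. Every array compared Cy5-labelled RNA of the cells (red) with Cy3-labelled RNA of NIH3T3, a mouse fibroblast line that served as common reference (green), with no dye swap. The lines' epithelial or mesenchymal character was not checked against marker genes, because probe names could be matched to none of the markers.

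Long non-coding RNAs are transcribed and often spliced and polyadenylated like messenger RNAs, and many differ sharply between cell types. Some arise from promoters that fire in both directions and run away from a neighbouring gene, others from introns, and others are extensions of known genes. Folate carries the carbon units used to make nucleotides and methionine, so its removal can affect both growth and methylation reactions. None of the AK accessions (0) matched a gene symbol in the RefSeq gene table, so well-known non-coding RNAs are not analysed here by name. The files give the AK probes no chromosome.

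The probes came in lengths of 45 bases (8648 probes) and 60 bases (8377 probes), and the probes of a transcript mostly read the same stretch. Of 7759 probe pairs within transcripts, 4484 were nested, with the 45-base probe lying wholly inside the 60-base probe. A further 1184 overlapped in part, by a median of 37 bases, and 2091 shared no stretch of 12 bases. The separate pairs lay a median of 270 bases apart by the positions in their names. For 5665 of 5668 pairs that shared bases, those positions gave the offset seen in the sequences. The nested pair of AK020134, the transcript with the largest mean rise in M-Wnt cells among those with several tested probes, shows the layout. Capitals mark the bases common to both probes, here and in the next 6 sequences.
AK020134, 45 bases: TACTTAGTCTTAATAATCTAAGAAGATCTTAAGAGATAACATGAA
AK020134, 60 bases: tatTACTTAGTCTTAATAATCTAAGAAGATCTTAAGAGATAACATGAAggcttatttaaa
The nested pair of AK038693 is shown because its probes differed most in the size of their profile.
AK038693, 45 bases: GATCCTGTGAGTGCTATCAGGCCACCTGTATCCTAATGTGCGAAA
AK038693, 60 bases: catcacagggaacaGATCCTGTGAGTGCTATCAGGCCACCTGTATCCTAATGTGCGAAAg

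Different accessions can also read the same RNA. Of the AK probes, 1012 shared at least 30 bases on the same strand with a probe of another transcript or catalogue entry, and 31 shared them with the opposite strand. For 559 probes the partner was an Agilent catalogue probe and for 383 it was a probe of another AK accession. Such accessions are not independent transcripts in the counts that follow. AK020134 and AK019083, which both rose in M-Wnt cells, shared 59 bases.
AK020134, 60 bases: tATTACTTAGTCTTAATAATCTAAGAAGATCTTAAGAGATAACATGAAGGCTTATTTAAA
AK019083, 60 bases: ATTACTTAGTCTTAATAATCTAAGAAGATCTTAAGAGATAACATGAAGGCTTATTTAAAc
AK049117 and AK030514, which both fell in M-Wnt cells, shared 57 bases.
AK049117, 60 bases: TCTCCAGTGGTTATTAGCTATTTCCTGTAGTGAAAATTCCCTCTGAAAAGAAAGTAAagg
AK030514, 60 bases: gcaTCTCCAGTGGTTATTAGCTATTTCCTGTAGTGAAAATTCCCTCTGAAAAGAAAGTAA

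The AK probes were poorer in G and C than the other probes: the median was 37.8% for the 45-base probes and 36.7% for the 60-base probes, against 41.7% for all other probes. The hexamer AATAAA, the usual polyadenylation signal of mRNAs, was searched on the probe's own strand. It stood in 6.87% of the 45-base and 8.48% of the 60-base AK probes, and in 4.64% of the other 60-base probes. A match is only these letters in the probe. The probes below were tested and belong to transcripts whose differences are described in the following sections, and capitals mark the hexamer where present.
AK008789, 60 bases: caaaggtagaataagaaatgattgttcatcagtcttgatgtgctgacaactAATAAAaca
AK013500, 60 bases: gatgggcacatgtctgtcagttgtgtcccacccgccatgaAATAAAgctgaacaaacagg
AK020447, 60 bases: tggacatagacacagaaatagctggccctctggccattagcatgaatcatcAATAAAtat
AK171765, 60 bases: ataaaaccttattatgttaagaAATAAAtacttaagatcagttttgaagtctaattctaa
AK011511, 60 bases: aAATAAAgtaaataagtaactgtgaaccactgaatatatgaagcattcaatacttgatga
AK035205, 60 bases: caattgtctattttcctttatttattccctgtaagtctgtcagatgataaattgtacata
AK002727, 60 bases: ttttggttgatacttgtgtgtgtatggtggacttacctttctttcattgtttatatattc
AK033337, 60 bases: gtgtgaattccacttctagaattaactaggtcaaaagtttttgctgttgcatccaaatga

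Signal over background set what could be measured. A probe was taken as detected on an array when both of its spots were marked well above background in red, and in a group when this held on all 3 arrays. By that rule 37.0% of the transcripts were detected in at least 1 group, and 1828 transcripts in all 6 groups. No red spot was well above background on any array for 2521 transcripts. AK probes were detected less often than the others: 28.2% of them in at least 1 group, against 57.2% of the other probes. Detection rose with length, from 20.4% of the 45-base to 36.4% of the 60-base probes, and with G and C content. Among 60-base probes it was 25.5% at up to 30% G and C and 60.4% above 50%.

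The lines and media differed in how many transcripts were seen. E-Wnt cells had 2953 detected transcripts in control medium and 2932 after withdrawal. M-Wnt cells had 2873 and 2716, and metM-Wnt cells 2566 and 1974. The share of AK probes detected per array was 25.1% to 31.9% in E-Wnt control, 26.5% to 30.5% in E-Wnt withdrawal, 25% to 27.7% in M-Wnt control and 22.3% to 28.2% in M-Wnt withdrawal. These 4 groups overlapped. It was 22.5% to 24.6% in metM-Wnt control and 17.3% to 20.3% in metM-Wnt withdrawal, below every other array. Overall red brightness moved with this: mean red signal was 4701 to 6649 on E-Wnt control arrays and 2260 to 2837 on metM-Wnt withdrawal arrays, and the other probes lost detection too, from 53.2% to 45% between those groups. The array with the lowest mean red signal, M-Wnt withdrawal 3 (1964), had 22.3% of AK probes detected, above every metM-Wnt withdrawal array. The part of brightness in the detection counts was not tested.

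Some transcripts were seen in 1 line alone. A transcript counted as restricted to a line when a probe was detected on all 6 arrays of that line and no spot of any of its probes was well above background on the 12 arrays of the other lines. E-Wnt had 25 such transcripts, M-Wnt 0 and metM-Wnt 1. A further 18 were shared by M-Wnt and metM-Wnt and absent by this rule from E-Wnt, a combination counted after the single-line counts were known. No transcript (0) was shared only by E-Wnt and M-Wnt or only by E-Wnt and metM-Wnt. Counted by probe, 1.33% of the AK probes detected on all E-Wnt arrays were restricted to E-Wnt, against 0.811% of the other probes. For M-Wnt with metM-Wnt it was 1.26% against 0.468%. AK probes were detected less often than the others in any group (28.2% against 57.2%), and the part of this in these shares was not tested. The shares are therefore no measure of how line-bound AK transcripts are. Detection chose these transcripts, so their levels are described with no test.

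AK008789 had the largest difference between E-Wnt and the other lines. Its 60-base probe had a log2 red signal of 11.58, 11.62 and 11.68 on the E-Wnt control arrays and 11.69, 11.26 and 11.77 after withdrawal. On the 12 arrays of the other lines it lay between 6.37 and 7.01, not well above background. The E-Wnt level was at least 26.2-fold higher than in either other line. Such a bound compares the mean in the bright group with the higher, per array, of the probe's own value and the dimmest signal well above background there, on single channels scaled after loess and Aquantile. Where the fold of the red to green ratio was smaller it was used instead, and over several lines the bound is that of the closest pair of lines. It is open to dye bias, since no array had swapped dyes. The next bounds were 16.1-fold for AK019995, 12.1-fold for AK086642, 9.02-fold for AK009091, 7.22-fold for AK143622, 6.82-fold for AK166041, 6.66-fold for AK018600 and 3.34-fold for AK020037. Of these 8, AK166041 varied most within E-Wnt, from 8.66 to 10.28. Over all 33 probes of the 25 transcripts the bound ran from 1.17-fold to 26.2-fold with a median of 2.27-fold.

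Among the transcripts shared by M-Wnt and metM-Wnt, AK012980 had the largest difference. Its log2 red signal was 9.98, 9.94 and 10.04 in M-Wnt control, 10.09, 9.90 and 10.08 in M-Wnt withdrawal, and 9.56 to 10.55 on the 6 metM-Wnt arrays. The 6 E-Wnt arrays lay between 5.69 and 6.57, so both other lines were at least 11.4-fold higher. AK035414 (at least 6.78-fold), AK134520 (6.41-fold), AK046686 (6.12-fold), AK013461 (4.74-fold), AK020279 (4.36-fold), AK018429 (4.33-fold) and AK033337 (3.80-fold) followed. AK033337 stood apart in the reference: it was well above background in green on 0 arrays, while the other 7 were on all 18. Its red signal was 9.52, 9.63 and 10.03 in M-Wnt control and 8.68, 8.51 and 9.0 in metM-Wnt control. The single transcript restricted to metM-Wnt, AK163103, was dim, with 7.49 to 7.83 against 6.06 to 6.91 in the other lines, at least 1.87-fold. How many transcripts count as restricted depends on the rule: the E-Wnt count was 4 when spots merely positive and significant counted as seen and 68 when the other lines needed both spots to count as seen.

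For tests, 4806 AK probes of 3437 transcripts passed the filter (detected in at least 1 group, with a usable spot on every array), among 41089 probes of all kinds. A probe was called at an adjusted p under 0.05 in limma, with Benjamini-Hochberg adjustment over all 41089. Levels and changes below are log2 ratios of red to green and differences between them. Where a transcript has several tested probes its values are their means, its SE is the mean of theirs and its adjusted p is the largest of theirs. A probe that passed the filter only through the group where it is bright had to differ, so shares of called probes describe the probes tested, not all AK transcripts.

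In M-Wnt cells AK probes differed between withdrawal and control medium about as often as probes of all kinds. Of the 4806 tested probes 945 were called, or 19.7%, and of all tested probes 18.4%. Of the AK probes 459 were higher and 486 lower after withdrawal, where all probes gave 10.0% higher and 8.39% lower. The median AK change was 0.0008 log2 units and the median over all probes 0.044. At least 2-fold, 150 AK probes were called, or 3.12%, against 2.46% of all probes. Of these 98 were higher and 52 lower, where all probes gave 1.78% and 0.679%. By transcript, 565 had every tested probe called with a single sign, 291 up and 274 down. Another scaling moved the split: 48.6% of the AK calls were higher here, 33.1% with the scanner's processed signals, 40.2% with the red channel alone and 20.4% with median centring, where the median over all probes shifted to -0.25. The count was 495 with median centring and 600 for probes detected on all 18 arrays.

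AK020447 had the smallest SE of the 5 rising transcripts named here with several probes. Its log2 ratios were -0.60, -0.61 and -0.62 in M-Wnt control and 0.99, 0.84 and 0.90 after withdrawal, so the groups did not overlap. The rise was 1.52 ± 0.15 (SE; adjusted p = 0.000141), or 2.86-fold. In E-Wnt cells it stood at 2.63 to 3.21 on all 6 arrays, far above either M-Wnt group, and in metM-Wnt at -0.25 to 0.41.

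AK020134 had the largest rise with several probes. Its M-Wnt control values were -2.05, -2.05 and -2.32, and its withdrawal values were -0.87, -0.49 and 0.10, all higher but spread over almost 1 log2 unit. The rise was 1.72 ± 0.28 (adjusted p = 0.000779), or 3.30-fold. AK019083, which shares its sequence, rose by 1.57 ± 0.27 (adjusted p = 0.00100). Their probes are largely the same letters, so the pair counts as 1 observation.

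AK141413, whose probes share no bases, ran from -1.94 to -1.83 in control and held -0.76, -0.41 and 0.42 after withdrawal, a rise of 1.65 ± 0.36 (adjusted p = 0.00773). AK140219 went from -3.18, -3.09 and -3.38 to -2.02, -2.30 and -0.55, a rise of 1.59 ± 0.44 (adjusted p = 0.0237). The third withdrawal array was highest in both. Within slide 3, where 1 control and all 3 withdrawal arrays of M-Wnt lay, the rises were as large, 1.69 for AK141413 and 1.76 for AK140219, while their calls were lost (adjusted p = 0.0773 and 0.178). That fit sets the withdrawal arrays against 1 control array, which is assumed to vary like the other groups. AK140219 was also lost without M-Wnt control array 1 (adjusted p = 0.0514), 2 (0.0611) or 3 (0.0835), or without withdrawal array 3, where its rise was 1.06 (adjusted p = 0.127).

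Among transcripts with 1 tested probe, AK171765 rose most. It held -0.75, -0.66 and -0.56 in M-Wnt control, where it was detected on 1 of 3 arrays, and 1.81, 1.59 and 1.07 after withdrawal, where it was detected on all 3. The rise was 2.15 ± 0.27 (adjusted p = 7.98e-05), or 4.43-fold. AK037908 went from -2.05, -2.24 and -2.42 to -0.52, -0.55 and -0.24, a rise of 1.80 ± 0.18 (adjusted p = 8.37e-06). Its E-Wnt arrays stood at 0.93 to 1.32, above both M-Wnt groups. AK035801 went from -1.12, -1.26 and -1.44 to 0.27, 1.30 and 0.29, a rise of 1.89 ± 0.58 (adjusted p = 0.0346). Its call was lost when any 1 of the 6 M-Wnt arrays was left out, with adjusted p from 0.0533 (without withdrawal array 1) to 0.130 (without withdrawal array 2), and within slide 3 (0.136), where the rise was 2.06.

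Apart from AK020447 and AK037908, the rising transcripts named above had a larger SE than any falling one whose SE is given below. AK020309 held 1.97, 1.87 and 1.99 in M-Wnt control and 0.35, 0.27 and 0.31 after withdrawal, a change of -1.63 ± 0.12 (adjusted p = 1.14e-06), or 3.1-fold. E-Wnt cells had 0.50 to 0.78 and metM-Wnt cells 1.11 to 1.60 on the same scale. After withdrawal the M-Wnt level thus lay below every array of both other lines. AK050707 held 2.10, 2.28 and 2.25 and then 0.89, 0.63 and 0.65, a change of -1.49 ± 0.18 (adjusted p = 0.000126).

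AK049117 went from 0.84, 0.90 and 0.90 to -0.60, -0.65 and -0.74, a change of -1.54 ± 0.12 (adjusted p = 2.47e-06). AK030514 went from 0.90, 0.83 and 0.77 to -0.51, -0.64 and -0.60, a change of -1.42 ± 0.11 (adjusted p = 2.03e-06). These are the accessions with 57 shared bases. Each also has a second probe that was called with the same sign. By the positions in their names the second probe lies next to the first. After withdrawal both lay within or just below the E-Wnt values, which ran from -0.68 to -0.28 for AK049117 and from -0.68 to -0.33 for AK030514.

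AK035404, not detected on any E-Wnt array (0 of 6), went from 2.47, 2.47 and 2.27 in M-Wnt control to 0.89, 0.86 and 0.63. Its call held for both probes (largest adjusted p = 6.43e-06), and its 45-base probe, not well above background after withdrawal, was at least 2.24-fold lower. AK167737 went from 1.05, 1.08 and 0.97 to -0.57, -0.98 and -0.60, a change of -1.75 ± 0.13 (adjusted p = 9.73e-07), with 1 of 3 withdrawal arrays detected. AK019783 went from -0.48, -0.38 and -0.24 to -1.91, -1.94 and -1.67 (change -1.47 ± 0.17, adjusted p = 3.52e-05). AK039937 was detected on all 3 control arrays and on 0 of 3 withdrawal arrays, at least 2.11-fold lower (adjusted p = 1.20e-06). Within slide 3, with its 1 control array, the changes of these 8 falling transcripts ran from -1.69 to -1.35, with adjusted p from 0.000466 to 0.00895, and 5 of the 8 rising ones were called.

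Brightness and slide moved with this comparison. M-Wnt withdrawal arrays had a mean red signal of 1964 to 3722 and control arrays 4213 to 5170. Slide 2 held control arrays 1 and 2, and slide 3 the other 4 arrays. Within slide 3 the count of called AK probes was 236. It was 504 without control array 2, 531 without control array 3, 518 without withdrawal array 2 and 591 without withdrawal array 3. The part of brightness in the calls was not tested. Of the 945 called probes, 97 were detected on no array (0 of 3) of the dimmer group, so their changes are bounds.

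In metM-Wnt cells 18 AK probes were called after withdrawal, or 0.375%, and of all probes 0.404%. Of the AK probes 12 were higher and 6 lower, where all probes gave 0.163% higher and 0.241% lower. The direction of the split turned with the scaling: 66.7% of AK calls were higher here, 10.8% with the processed signals (37 calls), 16.7% with red alone and 0% with median centring, which called 1 probe. AK017601, the transcript with several called probes, held -1.49, -1.31 and -1.34 in control and -0.33, -0.45 and -0.54 after withdrawal, a rise of 0.94 ± 0.14 (adjusted p = 0.0389). M-Wnt cells had -1.59 to -1.44 and -1.11 to -0.95 for it. AK014157 rose by 0.98 ± 0.15 (adjusted p = 0.0156) from -1.72 to -1.64 in control, but its change was -0.0017 in the red channel alone. AK002673 rose by 0.90 ± 0.16 (adjusted p = 0.0295) and AK021120 by 0.88 ± 0.17 (adjusted p = 0.0425). The calls of AK017601 and AK021120 were lost when any 1 of the 6 metM-Wnt arrays was left out. For AK017601 the adjusted p then ran from 0.0546 (without withdrawal array 3) to 0.121 (without withdrawal array 1). For AK021120 it ran from 0.0531 to 0.133 without the same arrays. AK017601 was also lost with median centring (0.405) and with red alone (0.849).

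Of the fallers in metM-Wnt, AK015098 held 1.49, 1.31 and 1.18 in control and 0.77, 0.37 and 0.63 after withdrawal (change -0.74 ± 0.14, adjusted p = 0.0377). AK018236 and AK144572 were detected on all 3 control arrays and on 0 of 3 withdrawal arrays, at least 1.24-fold and 1.14-fold lower. AK144572 was detected in no other group, so it passed the filter only through the group where it is bright. It had to be lower after withdrawal, so its direction and its call are no support here. Within slide 4, which holds 1 withdrawal array and all 3 control arrays, the 7 changes kept their direction and the calls were all lost (adjusted p from 0.169 to 0.545). There AK017601 changed by 1.05, AK014157 by 1.30, AK002673 by 0.79, AK021120 by 1.11 and AK015098 by -0.56. AK018236 and AK144572 were not well above background after withdrawal, so their changes there (-0.42 and -0.74) are no measured sizes. The calls were also all lost without metM-Wnt control array 1 (0.0569 to 0.102) or withdrawal array 2 (0.0661 to 0.148). The AK count was 1 without either of those arrays, 5 without control array 2 and 7 without control array 3.

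E-Wnt cells gave 1 called AK probe, or 0.0208%, against 0.0389% of all probes (0.00487% higher, 0.0341% lower), while 325 AK probes had an unadjusted p under 0.05. The called probe, the 60-base probe of AK005945, is named after its value was seen. It held 1.06, 1.22 and 1.22 in control and 0.41, 0.30 and 0.09 after withdrawal, a change of -0.90 ± 0.11 (adjusted p = 0.00367). Its nested 45-base probe changed by -0.77. That probe passed the filter only through E-Wnt control, where it is bright, so it has no test here. Without E-Wnt withdrawal array 3 the AK count was 33, without withdrawal array 2 it was 5 and without control array 3 it was 2.

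Whether the response differed between lines was tested as an interaction. Of the AK probes 327 had a different response in M-Wnt and E-Wnt, or 6.80%, against 6.86% of all probes. The M-Wnt response was the higher for 108 and the lower for 219, where all probes gave 3.93% and 2.93%. Between M-Wnt and metM-Wnt 233 AK probes differed, or 4.85%, against 5.09%. Here 75 were higher in M-Wnt and 158 lower, where all probes gave 2.93% and 2.16%. With median centring the counts were 133 (12% of them higher) and 35, and with slide as a fixed term 31 and 14. Without E-Wnt withdrawal array 3 the first count was 783, and without M-Wnt control array 2 the counts were 197 and 131. Without M-Wnt withdrawal array 2 they were 206 and 135, and without M-Wnt control array 3 they were 216 and 143. The second was 154 without M-Wnt withdrawal array 1 or metM-Wnt withdrawal array 2, and 151 without metM-Wnt control array 3.

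AK054438 moved in opposite directions. It held 0.98, 0.91 and 0.98 in M-Wnt control and 2.17, 2.20 and 2.81 after withdrawal, a rise of 1.43. In metM-Wnt it held 2.25, 2.27 and 2.78 and then 1.44, 1.38 and 1.19, a change of -1.09 that did not pass on its own (adjusted p = 0.0811). The difference was 2.53 ± 0.38 (adjusted p = 0.000958), and 2.40 with slide as a fixed term, where the call was lost (adjusted p = 0.0775). AK150522 had a like profile, with 1.68 to 1.78 and then 2.58 to 3.09 in M-Wnt and 2.58 to 3.47 and then 1.71 to 1.84 in metM-Wnt, a difference of 2.31 ± 0.42 (adjusted p = 0.00437; 0.195 with slide as a fixed term and 0.0614 with median centring).

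AK167737 fell in M-Wnt, while its metM-Wnt values were 0.26, 0.46 and 0.23 in control and 0.42, 0.31 and 0.50 after withdrawal. The difference was -1.84 ± 0.19 (adjusted p = 3.08e-05) from metM-Wnt and -1.96 ± 0.19 (adjusted p = 2.38e-05) from E-Wnt, and both kept their call with slide as a fixed term. AK020309 (-1.69), AK049117 (-1.76) and AK037908 (2.04) likewise differed from E-Wnt and kept their calls in that fit.

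Between lines in control medium the differences were larger and more numerous. M-Wnt against E-Wnt called 1814 AK probes, or 37.7%, against 45.6% of all probes. In M-Wnt 991 were higher and 823 lower, where all probes gave 23.4% and 22.2%. At least 2-fold, 571 AK probes were called, or 11.9%, against 17.9% of all probes. Of these 315 were higher and 256 lower, where all probes gave 9.17% and 8.69%. With slide as a fixed term the count was 1057, and for probes detected on all 18 arrays 996. No slide held control arrays of both lines, so the slide term reached this comparison only through E-Wnt withdrawal arrays. metM-Wnt against E-Wnt called 1775, or 36.9%, against 44.1%, with 953 higher and 822 lower, where all probes gave 23.5% and 20.6%. These comparisons share the E-Wnt control arrays, so their likeness is no independent result. Of the called probes, 372 for M-Wnt and 386 for metM-Wnt were detected on no array (0 of 3) of the dimmer group. Their changes are bounds, and those that passed the filter only through the brighter line had to differ. With median centring the higher share went from 53.7% to 32.0% for metM-Wnt against E-Wnt, where the median over all probes was -0.17. No slide held arrays of both metM-Wnt and E-Wnt, so line and slide cannot be told apart in that comparison.

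AK035205 showed the largest difference among the named transcripts detected in every group. Its log2 ratio was -4.74, -4.16 and -4.99 in E-Wnt control, 1.41, 1.58 and 1.65 in M-Wnt control and 2.06, 1.49 and 1.80 in metM-Wnt control. The M-Wnt level was above that of E-Wnt by 6.18 ± 0.22 (adjusted p = 6.32e-13) and the metM-Wnt level by 6.42 ± 0.22 (adjusted p = 4.46e-13). That is 72.3-fold and 85.3-fold. AK013500 held -3.62, -3.64 and -3.55 in E-Wnt, 2.11, 1.90 and 1.85 in M-Wnt and 1.84, 1.96 and 1.82 in metM-Wnt. The differences were 5.56 ± 0.11 (adjusted p = 1.85e-15) and 5.48 ± 0.11 (adjusted p = 2.74e-15), the smallest SE of the transcripts named here for line differences.

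AK148693 was detected on all M-Wnt and metM-Wnt arrays and on 0 of 6 E-Wnt arrays. Its overlapping probes gave at least 14.3-fold and 73.9-fold more in M-Wnt, and at least 15.1-fold and 78.2-fold more in metM-Wnt, with no test, since the probes passed the filter only through those lines. AK148950 held -5.10, -4.76 and -5.27 in E-Wnt, -0.58, -1.04 and -1.13 in M-Wnt and -0.09, -0.11 and 0.19 in metM-Wnt, so all 3 lines were apart from each other on the control arrays. It exceeded its E-Wnt level by 4.13 ± 0.23 in M-Wnt and by 5.04 ± 0.23 in metM-Wnt (adjusted p = 2.66e-10 and 2.12e-11). AK015589 held -0.06 to 0.26 in E-Wnt and 4.07 to 4.22 in M-Wnt. Its 60-base probe, detected in every group, was 4.11 ± 0.20 higher in M-Wnt (adjusted p = 3.52e-11). Its 45-base probe was detected on no E-Wnt control array (0 of 3) and was at least 15.9-fold higher in M-Wnt.

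Among transcripts lower outside E-Wnt, AK008014 was detected on every array. It held 1.0, 0.92 and 1.16 in E-Wnt control, -2.87, -2.93 and -2.96 in M-Wnt and -2.76, -2.86 and -2.78 in metM-Wnt. The changes were -3.95 ± 0.17 (adjusted p = 1.66e-11) and -3.83 ± 0.17 (adjusted p = 2.31e-11). AK020447, the transcript that rose on withdrawal in M-Wnt, was lower in M-Wnt than in E-Wnt (change -3.71 ± 0.15, adjusted p = 1.41e-11).

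metM-Wnt and M-Wnt were closer: 286 AK probes were called, or 5.95%, against 9.33% of all probes. In metM-Wnt 118 were higher and 168 lower, where all probes gave 4.94% and 4.39%. Of the 286, 27 were detected on no array of the dimmer line, so their changes are bounds. No slide held both groups, so a fixed slide term could not be fitted. With slide as a random block the correlation within slides was negative (-0.142), so that fit takes out no shared slide effect. The count there was 504. It was 61 with median centring (23.0% of them higher) and 174 for probes detected on all 18 arrays. It was 126 without M-Wnt control array 2, 139 without array 3 and 186 without array 1, and 164 without metM-Wnt control array 3.

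AK002727 and AK011511 set metM-Wnt apart from both other lines. AK002727 held -0.28, -0.50 and -0.52 in M-Wnt control, 0.31, 0.06 and -0.09 in E-Wnt control and -4.86, -4.83 and -4.68 in metM-Wnt control. After withdrawal its metM-Wnt arrays held -4.38, -4.73 and -4.56, and all 12 arrays of the other lines lay between -0.84 and 0.77. The change from M-Wnt was -4.36 ± 0.28 (adjusted p = 1.25e-07), 20.5-fold, and that from E-Wnt -4.88 ± 0.28 (adjusted p = 6.36e-10). It remained detected on all metM-Wnt arrays.

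AK011511 held -0.24, -0.02 and 0.32 in M-Wnt control, 1.06, 0.16 and 0.52 in E-Wnt control and -4.39, -4.14 and -4.63 in metM-Wnt control. The change from M-Wnt was -4.41 ± 0.23 (adjusted p = 4.70e-09), 21.3-fold, and that from E-Wnt -4.97 ± 0.23 (adjusted p = 1.57e-11). In both transcripts no array of metM-Wnt came near an array of the other lines. These calls held under every alternative that could be fitted.

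The other differences between these lines were smaller. AK039861 held 0.92, 0.83 and 0.91 in M-Wnt and -1.19, -0.68 and -1.15 in metM-Wnt, called at an adjusted p of at most 0.000124. Its 45-base probe was not well above background in metM-Wnt and was at least 3.24-fold lower. AK033337 was lower in metM-Wnt (change -1.12 ± 0.22, adjusted p = 0.00361). AK017196, detected on 0 of 6 E-Wnt arrays, was 1.22 ± 0.13 higher in metM-Wnt than in M-Wnt (adjusted p = 6.12e-05), with 1.93 to 2.05 against 0.64 to 0.90, and AK171765 1.63 ± 0.27 higher (adjusted p = 0.00121). AK142445, low against the reference in every group (-5.58 to -5.44 in M-Wnt), was 1.28 ± 0.21 higher in metM-Wnt (adjusted p = 0.00110).

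Probes of a transcript could be compared where both were tested, in 939 nested, 180 overlapping and 253 separate pairs. For withdrawal in M-Wnt both probes were called in 129, 39 and 35 of these, with a single sign in every pair. For M-Wnt against E-Wnt they were both called in 297, 81 and 97, again with a single sign in every pair. Over the 8 comparisons 1 pair was called in opposite directions. That was AK006520 in metM-Wnt against E-Wnt: higher by 0.38 by its 45-base probe (adjusted p = 0.0272), and lower by its 60-base probe. That probe passed the filter only through E-Wnt, where it is bright. Pairs sharing bases read the same stretch, so the separate pairs are the more independent view of a transcript.

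Where a single probe of a pair was called in M-Wnt withdrawal, the partner had the same sign in 96.2% of nested, 96.3% of overlapping and 84.8% of separate pairs. For M-Wnt against E-Wnt the shares were 95.5%, 100% and 70.8%. Over the 18 arrays the median correlation within a pair was 0.86 for nested, 0.92 for overlapping and 0.81 for separate pairs. Arrays of a group share their line and medium, so this is a description. Among pairs whose group means ranged over at least 1 log2 unit it was 0.97, 0.97 and 0.93.

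The shorter probe gave the smaller change in most nested pairs for M-Wnt withdrawal and for M-Wnt against E-Wnt. In nested pairs with both probes called, the ratio of the 45-base to the 60-base change had a median of 0.93 for M-Wnt withdrawal and 0.88 for M-Wnt against E-Wnt, and the 45-base change was the smaller in 64.3% and 74.7% of pairs. Detection differed more. Of the nested pairs 939 had both probes detected, 686 the 60-base probe alone and 39 the 45-base probe alone. AK038693 went against this order: its change in M-Wnt against E-Wnt was -1.81 for the 60-base and -5.75 for the 45-base probe printed above, whose letters all lie within the longer probe. Both probes were detected on 1 of 3 M-Wnt control arrays and passed the filter only through E-Wnt.

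AK030946 was the clearest disagreement. Its 60-base probe held -0.07, 0.07 and -0.01 in E-Wnt control and -2.69, -2.55 and -2.60 in M-Wnt control (change -2.61 ± 0.15, adjusted p = 4.17e-10). Its 45-base probe, elsewhere in the transcript, held 0.16 to 0.23 and 0.21 to 0.30 (change 0.041 ± 0.089, adjusted p = 0.754), and the correlation of the probes over 18 arrays was 0.19. In AK076859 the 60-base probe was not well above background in E-Wnt and held 2.57, 2.46 and 2.69 in M-Wnt control, while the 45-base probe held 0.21 to 0.29 in E-Wnt and 0.55 to 0.70 in M-Wnt (adjusted p = 0.00587). The pairs of AK148693 and AK028767 kept a correlation of 0.99 and 0.98 and differed in the size of the line difference. On withdrawal their means moved in different directions in some lines, but neither pair was called in opposite directions. In M-Wnt those of AK028767 went from 2.15 to 1.92 by its 45-base and from 2.04 to 2.36 by its 60-base probe. In metM-Wnt those of AK148693 went from 3.11 to 2.71 and from 3.53 to 3.83. In M-Wnt both rose, from 3.02 to 3.16 and from 3.45 to 3.81.

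Agilent catalogue probes gave a further check for the AK probes that share at least 30 bases with one. In 190 tested pairs, AK and catalogue probe were both called with a single sign in all 49 pairs that were both called in M-Wnt withdrawal and in all 77 in M-Wnt against E-Wnt. Since these pairs share letters they are no independent reading.

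Promoters could be placed for a small set. Windows of 250 bases before to 50 after each gene's start, from RefSeq (GRCm38.p6), were searched for whole AK probe sequences: 74 probes of 45 transcripts lay in windows of 45 genes, in 48 transcript-gene matches. In 33 of these the probe read the strand opposite to the gene and in 15 the same strand. The array's strand convention was not stated, so here and below each probe was taken to read the strand its letters give. Of the 45 transcripts 21 had a tested probe (15 opposite, 6 same strand), 31 probes in all. Of these 31 probes, 13 were called for M-Wnt withdrawal, where all tested probes gave 18.4%, 20 for M-Wnt against E-Wnt (45.6%) and 15 for metM-Wnt against E-Wnt (44.1%). By limma 0 were called for withdrawal in metM-Wnt (0.404% of all probes), where 4 had an unadjusted p under 0.05, and 0 in E-Wnt (0.0389%), where 0 did.

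The transcripts described next were picked from this set after their values were seen. AK003499 and AK009121 both read the strand opposite to Sphk1, which encodes a kinase that makes sphingosine 1-phosphate. The 60-base probe of AK003499 lay at chr11:116532238-116532297 and that of AK009121 at chr11:116532227-116532286 (GRCm38.p6), so they overlap and are 1 observation.
AK003499, 60 bases: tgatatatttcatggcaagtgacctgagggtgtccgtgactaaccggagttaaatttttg
The AK003499 probe held 2.81, 2.90 and 2.69 in E-Wnt control, 1.05, 0.62 and 0.82 in M-Wnt control and 1.03, 1.53 and 1.13 in metM-Wnt control. It was lower in M-Wnt (change -1.97 ± 0.20, adjusted p = 3.58e-07) and in metM-Wnt (change -1.57 ± 0.20, adjusted p = 5.59e-06). All 3 E-Wnt arrays lay above the 6 others. After withdrawal in M-Wnt it held 1.24, 1.14 and 0.92, a change of 0.27 ± 0.20 (adjusted p = 0.345).

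AK014010 read the strand opposite to Swsap1, which encodes a protein of homologous recombination. Its 60-base probe, at chr9:21955572-21955631 (GRCm38.p6), held 0.04, 0.04 and -0.02 in M-Wnt control and -0.85, -0.83 and -0.52 after withdrawal. The change was -0.75 ± 0.12 (adjusted p = 0.000514), and its E-Wnt arrays ran from -0.31 to 0.09. Its response differed from that in E-Wnt by -0.71 ± 0.17 (adjusted p = 0.0192). In metM-Wnt it was already lower in control medium, at -0.54, -0.70 and -0.49.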

How the data were processed

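RNA of 3 cell lines in 2 media was measured on 18 two-colour arrays. Per the file headers, the files deposited for each array give raw and processed intensity and a log10 ratio. These come from Agilent Feature Extraction 10.7.3.1 (submitters' processing notes). The deposited table of the whole series holds that log10 ratio to within 0.005 on every array. The marks for spots above background are 0 or 1 per the file headers. The aligner-free array needs no genome build.

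Intensities were background-corrected (normexp, offset 50) and loess-normalised with limma 3.58.1 in R 4.3.3 with data.table (1.17.8) and jsonlite (2.0.0), and the 2 spots of a probe averaged. Probes detected on all 3 arrays of at least 1 group were kept; 20 without a usable spot were left out. One model of 6 group means (lmFit, eBayes; 12 residual and 3.96 prior degrees of freedom) gave 8 comparisons, tested 2-sided. Precision is limited by the number of arrays. The scripts were tested on simulated data. Probe sequences were identical in the 8 scanner files that hold them, and promoter windows came from RefSeq (GRCm38.p6). Sequences were compared in Python 3.11.15 with pandas 2.3.3.

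The members, lists and tests were chosen with earlier results of these data known. Named transcripts had all tested probes called with a single sign and groups whose arrays did not overlap, ranked by mean change: 5 each way with several tested probes and 3 with 1 (2 each way for differences in response, with no demand on the arrays). For restricted transcripts the 8 brightest per line were named. For disagreement the 5 widest pairs were named. Fixed lists of known non-coding RNAs and of epithelial, mesenchymal, fibroblast and immune markers had 0 members that could be matched. Alternatives were other background corrections, scalings, filters, slide terms, array weights, a replicate block and each array left out.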

Additional observations from a re-analysis of the deposited data

Results flagged for a closer look

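The withdrawal response of 327 AK probes in M-Wnt differed from that in E-Wnt and that of 233 differed from metM-Wnt, each by limma's interaction test. These were 6.80% and 4.85% of the tested AK probes, near the 6.86% and 5.09% of all tested probes. Higher responses in M-Wnt than in E-Wnt were named for AK013579 (1.94 log2 units, adjusted p = 0.00825), AK020447 (1.76), AK171765 (2.63) and AK037908 (2.04). Lower ones were AK049117 (-1.76), AK020309 (-1.69), AK167737 (-1.96) and AK041817, for which 3 of the 4 groups compared were not well above background. Its fitted difference of -1.52 is therefore no measured size, and it ran from -0.98 with median centring to -4.18 with the series table. With slide as a fixed term the calls of AK013579 (adjusted p = 0.138), AK020447 (0.0545), AK171765 (0.109) and AK041817 (0.259) were lost, and with median centring those of AK013579 (0.0936) and AK041817 (0.0873). In E-Wnt the changes of these 8 ran from -0.49 to 0.61 and none passed the test, with adjusted p of at least 0.471.

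Against metM-Wnt the named higher responses were AK054438 (2.53), AK131589 (1.78), AK171765 (2.84) and AK150522 (2.31), and the lower ones AK050707 (-1.67), AK021294 (-1.51), AK167737 (-1.84) and AK006941 (-1.47). With slide as a fixed term 7 of these 8 lost their call: AK054438 (adjusted p = 0.0775), AK131589 (0.0926), AK171765 (0.0666), AK150522 (0.195), AK050707 (0.171), AK021294 (0.0628) and AK006941 (0.308). With median centring AK131589 (0.368), AK150522 (0.0614), AK050707 (0.0659) and AK021294 (0.0525) did. AK021294 went from -1.41, -1.32 and -1.31 to -2.10, -2.20 and -2.09 in M-Wnt and from -1.98, -2.20 and -2.40 to -1.44, -1.32 and -1.64 in metM-Wnt. AK131589 lost its call without any of 9 single arrays, with adjusted p from 0.0578 to 0.0953.

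The green channel was outside the comparisons of groups. In it 4183 transcripts had a probe well above background on all 18 arrays. For 173 of these no red spot was well above background on any array. By this mark the 173 were seen in the NIH3T3 reference and not in the 3 lines. The same count was not made for the other probes, so whether it is particular to AK transcripts was not tested. No array had swapped dyes, so the dye and the sample cannot be told apart here.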

How the results depend on the processing

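The AK call counts moved as follows, in the order withdrawal in M-Wnt, metM-Wnt and E-Wnt, M-Wnt against E-Wnt, metM-Wnt against E-Wnt, metM-Wnt against M-Wnt, and the response differences M-Wnt minus E-Wnt and M-Wnt minus metM-Wnt. Where a comparison is not named its count stayed within 1.5 times. Median centring gave 495, 1 and 0 for withdrawal, 61 for metM-Wnt against M-Wnt and 133 and 35 for the response differences. Agilent processed signals and the series table each gave 37 for metM-Wnt withdrawal. Probes detected on all 18 arrays, fewer by construction, gave 600, 5, 996, 995, 174 and 195 (M-Wnt, metM-Wnt, the 3 line comparisons and M-Wnt minus E-Wnt). No filter gave 30 in metM-Wnt. Slide as a fixed term gave 236, 0, 2, 1057, 31 and 14 (the withdrawals, M-Wnt against E-Wnt and both response differences), and within-slide fits gave 236, 0 and 2. Slide as a random block gave 99 and 8 (metM-Wnt, E-Wnt), 504 for metM-Wnt against M-Wnt, and 699 and 395. The correlation within slides in that fit was negative (-0.142). Array weights gave 2934, 105, 5, 926, 1110 and 1073 (withdrawals, metM-Wnt against M-Wnt, response differences), and the 6 arrays of a line alone 1742, 0 and 0. Averaging a transcript's probes gave 2 in E-Wnt. Leaving out each array gave ranges of 504 to 686, 1 to 25, 1 to 33, 1536 to 1698, 1463 to 1704, 126 to 213, 197 to 783 and 131 to 248. The causes were not tested.

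Replicate numbers did not pair the samples: same-numbered deviations correlated between -0.65 and 0.55. With a replicate block the counts were 753, 3, 1, 1711, 1679, 221, 243 and 175.

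With the positive-and-significant mark, transcripts detected per group were 4683, 4602, 4527, 4411, 4142 and 3413, in the order E-Wnt, M-Wnt and metM-Wnt, control before withdrawal. Restricted counts were then 4 for E-Wnt, 0 for metM-Wnt and 4 for M-Wnt with metM-Wnt. The E-Wnt count was 41 when either spot sufficed. With no detected array in the other lines the counts were 68, 2 for M-Wnt alone and 30 for M-Wnt with metM-Wnt, an alternative whose joint count was added after seeing the data. Separate pairs both called with a single sign were 17 (M-Wnt withdrawal) and 34 (M-Wnt against E-Wnt) among probes detected on all 18 arrays. AK014157 reversed in metM-Wnt with the red channel alone, to -0.0017. Dim signal limits what can be seen: 28.2% of AK probes were detected in at least 1 group. Slide as a fixed term could not be fitted for metM-Wnt against the other lines.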

Other observations

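Some transcripts were seen in 1 medium alone within a line, detected on all 3 arrays of it with no spot well above background in the other medium. There were 14 in M-Wnt control, 5 in M-Wnt withdrawal, 26 in metM-Wnt control, 0 in metM-Wnt withdrawal, 0 in E-Wnt control and 1 in E-Wnt withdrawal. The 5 in M-Wnt withdrawal were AK016417, AK020062, AK020555, AK021138 and AK036134, and the 1 in E-Wnt was AK020294, named after the counts were seen. All 6 were also detected on arrays of another line. The metM-Wnt excess lies where arrays were also dimmer, and the part of brightness in these counts was not tested. The share of other probes detected was also lower in metM-Wnt withdrawal than in metM-Wnt control. Medium-only counts were not made for the other probes. Whether the excess is particular to AK transcripts was therefore not tested.

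AK011444 was the only AK transcript with a probe that shared 25 bases with a microRNA hairpin, of 1005 hairpins in the RefSeq table (Mir5136). Its 60-base probe held 1.80, 2.18 and 1.93 in E-Wnt control, 0.63, 0.54 and 0.21 in M-Wnt control and 0.02, 0.34 and 0.11 in metM-Wnt control, with no overlap between E-Wnt and the others. It was lower in M-Wnt (change -1.51 ± 0.18, adjusted p = 3.23e-06) and in metM-Wnt (change -1.81 ± 0.18, adjusted p = 4.14e-07). The array reads long RNA, so these values say nothing of the mature microRNA.

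A probe of the promoter-matched AK005687, on the strand opposite to Srsf6, a splicing factor gene, was detected in E-Wnt alone. It held 0.59 to 1.07 in E-Wnt control and 0.03 to 0.19 in M-Wnt control by its 45-base probe, which passed the filter only through E-Wnt and so has no test here.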
